A study of Mus musculus with 6 samples.

Results

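The RNAs described here are 10 long noncoding RNAs of mouse CD4 T cells: Malat1, Neat1, Kcnq1ot1, Meg3, Gas5, Snhg1, Snhg5, Snhg6, Snhg8 and Snhg9. They were taken by gene symbol from a table of 23955 genes, and all 10 were found. The table holds 6 libraries of total RNA, 1 for each of 6 groups, from lymph nodes and spleens of C57BL/6 mice. The groups are 3 populations from wild type (WT) mice and the same 3 populations from YAP cKO mice, in which a floxed YAP gene (YAP flox/flox) is removed by Cre recombinase driven by the CD4 promoter (CD4-Cre+). YAP carries Hippo signals to the nucleus as a co-activator of transcription, and the CD4 promoter is active from the double-positive stage of the thymus onward, so Cre acts in CD8 as well as CD4 lineage cells. The populations were naive CD4 T cells (sorted as CD4+ CD62L+ CD25-), natural regulatory T cells frozen straight after sorting (fresh nTregs, CD4+ with high CD25), and nTregs stimulated in culture. The stimulation used plate-bound anti-CD3 at 2 µg/ml, anti-CD28 at 2 µg/ml and interleukin-2 at 100 U/ml, for 24 hours in 1 label and 48 hours in another. The number of mice behind a library was not given in the sources used here. The deposited cKO columns carry another abbreviation than the labels and were read as cKO because no other group remained, so every direction between genotypes rests on that reading.

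Long noncoding RNAs are transcripts that are not translated into a known protein. Malat1 is an abundant RNA of the nuclear speckles, the bodies that store splicing factors, and its neighbour Neat1 is the scaffold of paraspeckles, nuclear bodies that hold RNA-binding proteins such as Sfpq and Nono. Kcnq1ot1 is an unspliced antisense RNA made from the paternal copy of an imprinted cluster, where it silences neighbouring genes, and Meg3 is made from the maternal copy of another imprinted cluster. Gas5 and the Snhg genes are hosts of small nucleolar RNAs (snoRNAs), which guide chemical modification of ribosomal RNA from within ribonucleoprotein particles (snoRNPs). The snoRNAs lie in the introns of the host and are cut out of them, while the spliced host RNA of several such genes carries a 5′ terminal pyrimidine tract like that of ribosomal protein mRNAs and is broken down by nonsense-mediated decay when it is translated. Gas5, growth arrest specific 5, was named for its accumulation in resting cells and is also known as a decoy of the glucocorticoid receptor.

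On the GRCm38 build, GENCODE places Malat1 at chr19:5795690-5802672 and Neat1 at chr19:5824708-5845478, both on the minus strand. Kcnq1ot1 lies at chr7:143203458-143296549 on the minus strand, opposite the potassium channel gene Kcnq1, and Meg3 at chr12:109541001-109571726 on the plus strand. Gas5 (chr1:161034422-161038539, plus) holds 10 annotated small RNAs and overlaps the start of Zbtb37 on the other strand. Snhg1 (chr19:8723475-8726443, plus) holds 8 snoRNAs, Snhg5 (chr9:88521050-88522929, minus) holds 2 and Snhg6 (chr1:9941959-9944118, minus, opposite Mcmdc2) holds 1. Snhg8 (chr3:123507552-123508404, minus) holds Snora24, and Snhg9 (chr17:24719531-24719965, minus) holds Snora78 and lies opposite the ribosomal protein gene Rps2. The Neat1 values belong to the short transcript of 3004 nt, and the long paraspeckle-forming form has no row of its own. By the matching GENCODE transcripts Kcnq1ot1 is 93092 nt long, Malat1 6983 nt and Snhg9 only 183 nt. RefSeq gives Kcnq1ot1 a shorter span of 83437 bases. Fragment estimates for Kcnq1ot1 below, and intervals built on them, use the GENCODE length.

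The snoRNAs that bear on the host values were those whose rows could be read or confused with the host. Snora24 and Snora78 are H/ACA snoRNAs, a class that guides pseudouridylation, and the capitals mark the ACA box, 3 bases from the 3′ end in both. Snord22 is annotated as a C/D box snoRNA, a class that guides ribose methylation, and the capitals mark a D box (CTGA), 5 bases from the 3′ end. The sequences are GENCODE transcripts at chr3:123507937-123508066 (minus), chr17:24719676-24719803 (minus) and chr19:8725866-8725991 (plus).
Snora24, hosted by Snhg8: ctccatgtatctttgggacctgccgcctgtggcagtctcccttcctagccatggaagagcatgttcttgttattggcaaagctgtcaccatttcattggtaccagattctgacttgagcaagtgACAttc
Snora78, hosted by Snhg9: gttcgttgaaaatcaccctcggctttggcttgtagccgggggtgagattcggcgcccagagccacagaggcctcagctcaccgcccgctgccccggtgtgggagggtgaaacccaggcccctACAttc
Snord22, hosted by Snhg1: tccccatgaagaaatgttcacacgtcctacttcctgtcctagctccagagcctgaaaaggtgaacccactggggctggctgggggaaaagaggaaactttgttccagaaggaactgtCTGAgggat

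Promoter windows of 4 hosts are shown because their RNAs moved together in part and because host genes are known for starts in pyrimidine runs. The choice thus used values of these data. The windows run from 50 bases before to 50 bases after the annotated start (RefSeq, GRCm38.p6). Capitals mark the run nearest the start that begins with C and goes on with at least 4 bases that are each C or T, searched within 25 bases of the start on the strand of the gene alone, and the motif TATAAA, searched from 45 to 15 bases before the start on both strands. The windows are chr1:161035116-161035215 (plus, the second of 2 Gas5 records), chr9:88522848-88522947 (minus), chr3:123508287-123508386 (minus) and chr17:24719916-24720015 (minus).
Gas5: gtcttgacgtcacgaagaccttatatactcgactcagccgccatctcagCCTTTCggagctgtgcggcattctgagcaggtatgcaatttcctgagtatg
Snhg5: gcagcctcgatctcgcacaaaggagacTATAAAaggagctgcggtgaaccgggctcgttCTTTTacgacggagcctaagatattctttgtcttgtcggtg
Snhg8: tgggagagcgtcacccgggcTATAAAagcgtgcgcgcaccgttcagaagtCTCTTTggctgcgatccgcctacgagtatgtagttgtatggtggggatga
Snhg9: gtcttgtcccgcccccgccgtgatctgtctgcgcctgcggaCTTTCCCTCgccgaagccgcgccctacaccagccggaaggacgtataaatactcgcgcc
The marked run was 6 bases long in Gas5 and in Snhg8, 5 in Snhg5 and 9 in Snhg9. No such run was found in the windows of Snhg1 and of the first Gas5 record, which are not shown. Such a run stood in 54.2% of all 32851 promoters of the table and in 83.3% of the 66 promoters of cytosolic ribosomal protein genes, so its presence sets no promoter apart. TATAAA was found on the strand of the gene in Snhg5, Snhg8 and Meg3, and in 2.25% of all promoters (2.95% with either strand). Of the 10 genes, 8 had a record in the promoter table, and Neat1 and Snhg6 are named only.

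One symbol in the deposited table named the wrong RNA. The row with the symbol Snhg8 carries an accession that RefSeq and GENCODE give to the snoRNA Snora24, and its values were 0.000352, 0.000154, 0.000167 and 0.000247 FPKM (WT and cKO of the naive pair, then of the fresh pair) and 0 in both stimulated libraries. FPKM count fragments scaled to transcript length and to library size, so levels are per length. The accession of Snhg8 itself stood in a row with no symbol, at 27.2 to 107 FPKM, and those values are used here as Snhg8. That transcript, of 776 nt, keeps an intron and contains the Snora24 sequence, so fragments of Snora24 and Snhg8 cannot be told apart in it. The Gas5 transcript of 2556 nt likewise contains 6 of the 10 small RNAs of its gene, while the transcripts of Snhg1, Snhg5, Snhg6 and Snhg9 contain none of theirs.

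Across the series, Yap1 was listed at 0 FPKM in all 4 unstimulated libraries and at 0.169 in WT and 0.235 in cKO stimulated nTregs, so its RNA does not check the genotype. Foxp3, the defining factor of regulatory T cells, was at 2.98 and 3.30 FPKM in naive cells and between 45.9 and 57.8 in the 4 nTreg libraries. Depth was read from the steps between low values: 1 fragment on an effective 1 kb was worth 0.103 to 0.134 FPKM, and 76.2% to 79.5% of low values fell within 0.1 log2 of whole fragments. B cell markers summed to 1.81 to 1.90 FPKM in naive, 13.6 to 14.9 in fresh and 3.68 to 6.27 in stimulated libraries, with Cd79b at 12.0 and 11.2 in the fresh libraries and Pax5 at 0 in 5 of 6 libraries. The sum of all FPKM fell from between 837179 and 968967 in the unstimulated libraries to 534274 and 595524 in the stimulated ones. Features under 300 nt held 27.3% to 29.3% of that sum before stimulation and 12.5% and 13.2% after it. Features of 60 to 100 nt were at 0 in every library (0 of 898 above 0), so most snoRNAs hosted by these genes could not be read.

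Malat1, the nuclear speckle RNA, was the most abundant of the 10 in every library. In naive cells it read 4017 (WT) and 3713 (cKO) FPKM, straight after the nTreg sort 3921 and 3589, and following stimulation 1650 and 1295. The 4 unstimulated libraries were thus close to each other and both stimulated libraries lay far below them. Malat1 ranked between 21 and 39 among all genes by FPKM before stimulation and at 48 (WT) and 79 (cKO) after it, and its values rest on 84030 to 257764 fragments. Neat1, the paraspeckle RNA that lies next to it, was at 64.8, 66.4, 74.4, 72.2, 47.0 and 40.2 FPKM in the same order of libraries. Its highest values were in fresh nTregs and its lowest in stimulated nTregs, and the 3 pairs did not overlap. Malat1 stood 49.7 to 62.0 times above Neat1 per length in unstimulated cells, and 35.1 and 32.2 times above it in WT and cKO stimulated cells.

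Of the imprinted RNAs, Kcnq1ot1 was low but measured in every library. The naive pair read 2.43 (WT) and 2.80 (cKO) FPKM, the fresh nTreg pair 4.79 and 3.88 and the stimulated pair 8.70 and 6.31, on 1748 to 6047 fragments. The populations did not overlap, in the order naive, fresh, stimulated. Meg3, summed over 3 transcripts, was listed at 0 in the naive pair, and read 0.0689 (WT) and 0.0194 (cKO) FPKM in the fresh pair and 0.533 and 0.309 in the stimulated pair. It never reached 1 FPKM and was not tested. The longest of the 3 transcripts, of 14548 nt, held 85.5% of that FPKM in the WT and 48.7% in the cKO stimulated library.

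Among the snoRNA hosts, Gas5 and Snhg1 were the most abundant. Gas5 read 197 (WT) and 209.6 (cKO) FPKM in the naive pair, 172 and 180.0 in the fresh pair and 117 and 107 in the stimulated pair, a stepwise order with no overlap between populations. Snhg1 read 258 and 256 FPKM in the naive pair, 145 and 141.4 in the fresh pair and 147 and 135 in the stimulated pair, WT first. Its naive libraries stood above all others, and the fresh and stimulated libraries overlapped. Snhg5 was at 87.6, 92.8, 71.6, 76.1, 52.7 and 50.3 FPKM, in the same stepwise order as Gas5.

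Snhg6 had the reverse course after stimulation. The naive pair read 83.9 (WT) and 77.9 (cKO) FPKM, the fresh pair 55.9 and 55.0 and the stimulated pair 72.5 and 106, on 111 to 228 fragments. The cKO stimulated library held the highest value and the fresh libraries the lowest. Snhg8 read 106 (WT) and 107 (cKO) FPKM in the naive pair, 103 and 96.0 in the fresh pair and 27.2 and 28.2 in the stimulated pair, so that only the stimulated pair stood far apart from the rest. Snhg9 read 36.6 (WT) and 21.0 (cKO) FPKM in the naive pair and 25.8 and 3.83 in the fresh pair, and was listed at 0 in both stimulated libraries. On a transcript of 183 nt these are few fragments, at most about 52, 35, 46 and 6 in the 4 libraries above 0.

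**Figure D1:**
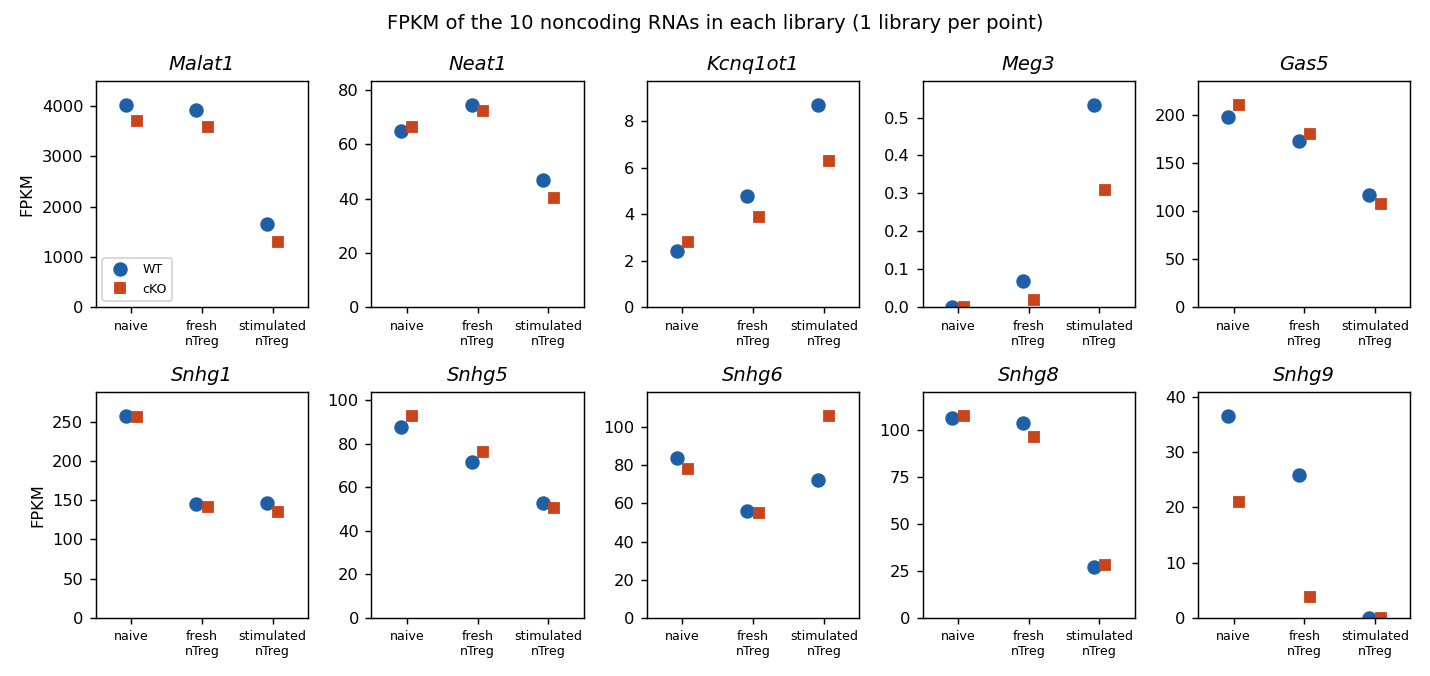
FPKM of each RNA (vertical axes, each from 0, with its own scale) in naive cells, fresh nTregs and stimulated nTregs. Circles are the WT library and squares the cKO library. Malat1, Neat1, Gas5, Snhg5, Snhg8 and Snhg9 are lowest after stimulation, Kcnq1ot1 and Meg3 are highest, and Snhg1 is high in naive cells only.

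Stimulated nTregs were compared with fresh nTregs in a limma model of log2(FPKM + 1) over all 6 libraries, with population and genotype as terms, and p-values adjusted over the 11213 genes at 1 FPKM or more in at least 2 libraries. Stimulation went with less Malat1, Neat1, Gas5, Snhg5, Snhg8 and Snhg9 and with more Kcnq1ot1 and Snhg6, while Snhg1 did not pass. Of the 9 RNAs tested, 6 were called lower and 2 higher, beside 27.3% of all genes called lower and 22.6% called higher (49.9% in all). The groups did not overlap for 8 of the 9, beside 74.0% of all genes. The median difference of the 9 was -0.66 in log2, beside -0.05 over all genes. Each population has 1 library per genotype, so these p-values do not measure variation among mice. With both terms fitted, the error left reflects how unevenly cKO and WT libraries differ from population to population. In a bulk library, fewer cells with an RNA and less of it per cell cannot be told apart.

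Snhg8 changed most among the RNAs still measured after stimulation, by -1.81 in log2 (SE 0.08, limma adjusted p = 6.82e-05), from a mean of 99.7 to 27.7 FPKM, or 3.60-fold lower. Its transcript contains Snora24, so these values do not separate host RNA from snoRNA, and the part of Snora24 was not tested. Malat1 fell by 1.36 (SE 0.13, limma adjusted p = 0.000644), 2.55-fold in mean FPKM, and the fall was seen in both genotypes, at -1.25 in WT and -1.47 in cKO. Both falls kept their call under every alternative scaling and filter and without any 1 library, though not their size: with every library set to an equal FPKM sum Malat1 was at -0.78 and Snhg8 at -1.25. Neat1 fell by 0.74 (SE 0.09, limma adjusted p = 0.00134), a smaller step than that of Malat1 next to it. Malat1 also fell as a share of all FPKM, from 0.386% to 0.468% in unstimulated libraries to 0.309% and 0.217% in WT and cKO stimulated ones.

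Gas5 fell by 0.66 (SE 0.09, limma adjusted p = 0.00181) and Snhg5 by 0.51 (SE 0.08, limma adjusted p = 0.00328). The Gas5 transcript contains small RNAs of its gene, and their part in its fall was not tested. Snhg1 differed by -0.02 (SE 0.07, limma adjusted p = 0.807). Kcnq1ot1 rose by 0.66 (SE 0.16, limma adjusted p = 0.0181) and Snhg6 by 0.65 (SE 0.16, limma adjusted p = 0.0176), and both calls were lost with no filter on low values (limma adjusted p = 0.0517 and 0.0524). The size of the Snhg6 step depended on 1 library, at 0.35 without cKO stimulated nTregs. Without the cKO fresh library the adjusted p was 0.115 for Kcnq1ot1 and 0.116 for Snhg6, and without the WT fresh or the WT stimulated library that of Kcnq1ot1 was 0.0772 or 0.0944. Without the cKO fresh library the adjusted p of Snhg5 lay just past the threshold of 0.05. Snhg9 was called lower (limma adjusted p = 0.00303). Since it was listed at 0 in both stimulated libraries, no fold is given. The scale of the libraries bears on the smaller steps. With the equal FPKM sum, Snhg6 was at 1.22 and Kcnq1ot1 at 1.17, the all-gene median shifted from -0.05 to 0.47, Neat1 (-0.18), Gas5 (-0.08) and Snhg5 (0.06, now positive) lost their calls, and Snhg1 was called higher at 0.55 (limma adjusted p = 0.0020).

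Other measures moved with stimulation. Short features fell as a class: of 25 features of over 100 and up to 140 nt at 1 FPKM or more in fresh nTregs, 23 were lower after stimulation, with a median of -2.41 in log2 FPKM, whereas classes above 320 nt had medians between -0.07 and -0.04. Malat1, at 6983 nt, belongs to the latter. Features listed at 0 in both stimulated libraries have no log2 ratio and are left out of these counts. Snhg9, at 183 nt, is such a feature. The 7 features of its length class that had a ratio were all lower. Terc, the telomerase RNA, and the small noncoding RNAs Rmrp and Rpph1 had log2 differences of -1.73, -2.13 and -1.59, all called. They belong to a list of 13 other long noncoding RNAs tested, which split: 5 were called lower and 4 higher, with a median of -0.04. Also called lower were Lncpint (-1.51) and Tug1 (-0.35), which are not short RNAs. The higher ones were Gt(ROSA)26Sor (0.70), Oip5os1 (0.65), Firre (0.60) and Dancr (0.57). At an equal FPKM sum, 8 of 14 were called higher and 4 lower. Of 8 stress genes of cell sorting, 7 were called lower, with a median of -4.07 and Fos going from 351 to 4.88 FPKM in WT. Summed, the 8 in nTregs were at 2269 and 2317 FPKM before and 129 and 163 after stimulation. The part of RNA size selection, sorting stress and culture in the changes of the 10 RNAs was not tested.

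A low signal over many silent genes was also seen after stimulation. Genes listed at 0 numbered 9285 and 9082 in the fresh pair against 4107 and 4860 in the stimulated pair, WT first. Of 7509 genes at 0 in all 4 unstimulated libraries, 4026 were above 0 in WT stimulated and 3432 in cKO stimulated nTregs. Those above 0 had medians of 0.191 and 0.132 FPKM, and the 99th percentile over the 7509 was 0.886 and 0.547. Meg3, at 0.533 and 0.309 FPKM, lay under that percentile in each library. Kcnq1ot1, at 8.70 and 6.31, lay above it, and Kcnq1 on the opposite strand was at 0.141 and 0.0362. Both imprinted RNAs and this low signal were higher in the WT than in the cKO stimulated library.

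**Figure D2:**
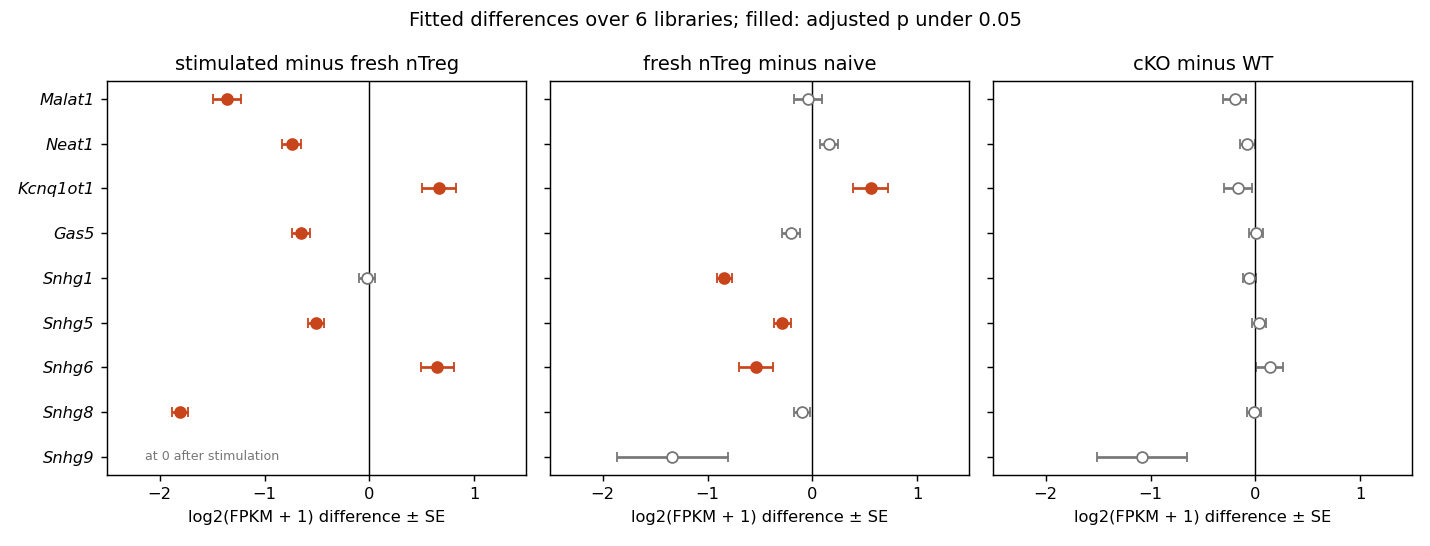
Differences of log2(FPKM + 1) with their standard errors (horizontal axes) for the 9 RNAs tested, in the 3 contrasts of the limma model over 6 libraries. Filled points passed an adjusted p of 0.05. Among the points drawn after stimulation those of Snhg8 and Malat1 lie farthest left, and Snhg9 has none there because it was listed at 0 in both stimulated libraries. Snhg1 is farthest left among the filled points between fresh nTregs and naive cells, and no point is filled for genotype.

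The readable snoRNAs also fell with stimulation. Snord22, hosted by Snhg1, read 92337 (WT) and 78736 (cKO) FPKM in the naive pair, 70129 and 61943 in the fresh pair and 17274 and 23484 in the stimulated pair, and fell by 1.71 in log2 from fresh to stimulated (SE 0.36, limma adjusted p = 0.00981). Its host was not called in that step. Snora78, hosted by Snhg9, read 3034 and 2763, then 1832 and 2180, then 88.1 and 242 FPKM in the same order, and fell by 3.76 (SE 0.35, limma adjusted p = 0.000586). Both belong to the length class that fell as a whole. Rps2, opposite Snhg9, was at 1340 and 1447 FPKM in the stimulated libraries in which Snhg9 was listed at 0. Whether fragments of Rps2 were counted to Snhg9 in the unstimulated libraries was not tested.

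**Figure D3:**
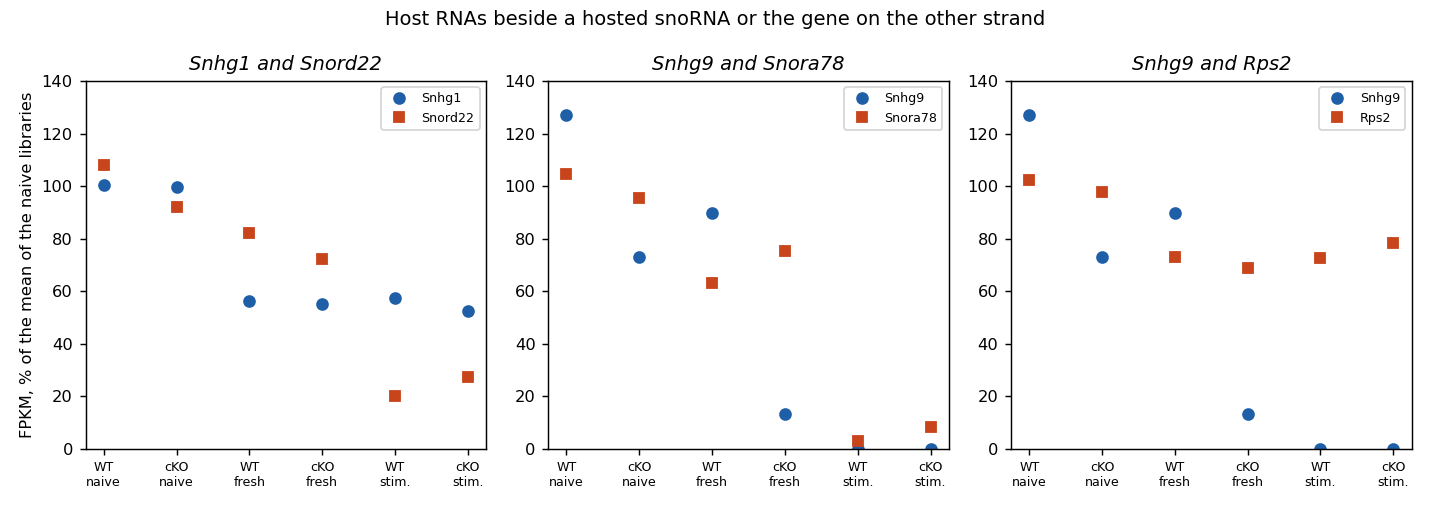
FPKM of Snhg1 and Snhg9 (circles) beside the hosted snoRNAs Snord22 and Snora78 and beside Rps2 on the opposite strand (squares), as a percentage of the mean of the naive libraries (vertical axes), in each library. Snord22 is low after stimulation while Snhg1 is level with fresh nTregs, and Rps2 stays high where Snhg9 is at 0.

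Proteins that work with these RNAs were followed in lists. Of 17 snoRNP proteins, 13 rose with stimulation and 1 fell, with a median of 0.57. They include Dkc1 (0.87), the pseudouridine synthase of H/ACA particles, Nop58 (0.63), a core protein of C/D particles, and Nhp2 (1.02), while Pih1d1, of the assembly complex, fell by 0.53. Of 16 nuclear speckle and splicing proteins, 2 rose and 9 fell, with a median of -0.52. Among the lower were the kinase Clk1 (-1.38) and the splicing factors Srsf5 (-1.13) and Sf3b1 (-0.90), while Srsf1 was higher (0.37). Of 14 paraspeckle proteins, 3 fell and 1 rose: Sfpq (-0.82) and Ewsr1 (-0.44) were among the lower and Cpsf6 (0.30) was higher, while Nono, the partner of Sfpq, was at 138 and 134 FPKM before and 155 and 147 after. With an equal FPKM sum, 10 of the 14 paraspeckle proteins were called higher and 7 of the 16 splicing proteins, whose median was then 0.05, while the snoRNP proteins kept their direction, with 16 of 17 higher. In that setting 59.2% of all genes were called higher and 8.99% lower.

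Of 16 factors of nonsense-mediated decay, 5 fell and 3 rose with stimulation. Smg1, the kinase that phosphorylates Upf1, fell by 0.57 and Smg6, its endonuclease, by 0.67, whereas Upf1 itself was not called (-0.30, limma adjusted p = 0.114). Gspt1 and Etf1, the translation release factors, rose by 0.49 and 0.42. With an equal FPKM sum, 9 of the 16 were called higher and none lower (0), a share of higher calls close to that of all genes in that setting. Of 29 tested genes within 50000 bases of the 10, 4 rose and 8 fell, a share of lower calls close to the 27.3% of all genes, and at an equal FPKM sum 14 rose and 2 fell. Frmd8, the neighbour of Neat1, fell by 0.80, and Wdr74, close to Snhg1, rose by 0.42. Of 15 imprinted genes of the clusters of Kcnq1ot1 and Meg3, only 3 were tested. Cdkn1c, a cell cycle inhibitor that Kcnq1ot1 is known to silence in cis, fell by 0.98 (limma adjusted p = 0.013), from 1.62 and 2.27 FPKM to 0.773 and 0.239. Tssc4 (0.38, limma adjusted p = 0.166) and Cd81 (0.13, limma adjusted p = 0.371) had positive differences and were not called. A link of Kcnq1ot1 to these genes was not tested.

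Fresh nTregs were compared with naive CD4 T cells in the same model, so both comparisons use the fresh libraries. nTregs held less Snhg1 than naive cells, 257 against 143 FPKM on average, by -0.84 in log2 (SE 0.07, limma adjusted p = 0.000737), and this call held under every alternative and without any 1 library. Snhg5 fell by 0.29 (SE 0.08, limma adjusted p = 0.0380) and Snhg6 by 0.54 (SE 0.16, limma adjusted p = 0.0489), and Kcnq1ot1 rose by 0.56 (SE 0.16, limma adjusted p = 0.0474). In all, 3 of the 9 were called lower and 1 higher, beside 14.8% and 16.5% of all genes (31.3% in all), and 7 of the 9 groups did not overlap, beside 70.9% of all genes. The calls of Snhg5, Snhg6 and Kcnq1ot1 lay near the threshold, and each was lost under several alternatives, including no filter on low values (limma adjusted p = 0.0749, 0.151 and 0.144). Leaving out any 1 of the 4 naive and fresh libraries ended the calls of Snhg5 and Snhg6, with limma adjusted p from 0.0561 to 0.296, and leaving out any of these but cKO naive ended that of Kcnq1ot1 (0.173 to 0.282).

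The other 5 RNAs were not called between fresh nTregs and naive cells. Malat1 differed by -0.04 (SE 0.13, limma adjusted p = 0.833), with its sign turning to 0.16 at an equal FPKM sum. Snhg8 differed by -0.10 (SE 0.08, limma adjusted p = 0.372), turning to 0.10 in the same setting, and Neat1 by 0.16 (SE 0.09, limma adjusted p = 0.219). Gas5 differed by -0.21 (SE 0.09, limma adjusted p = 0.119) and Snhg9 by -1.34 (SE 0.53, limma adjusted p = 0.105). Snhg9 overlapped, since WT fresh cells lay above cKO naive cells. An equal FPKM sum shifted the all-gene median from -0.02 to 0.15. The calls of Snhg9 and Gas5 depended on single libraries: without the WT fresh library Snhg9 was at -2.38 (limma adjusted p = 0.00418), and without either stimulated library both were called. Without the cKO fresh library Snhg9 was at -0.29 (limma adjusted p = 0.549).

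Markers of other cells moved with this comparison too. B cell markers were higher in fresh nTregs than in naive cells, as given above. Of 5 NK cell markers tested, 2 were called lower, Klrd1 (-2.63) and Prf1 (-2.004), and 2 higher, Nkg7 (2.69) and Klrb1c (0.95). Summed, the 6 NK cell markers were at 33.1 and 21.6 FPKM in the naive pair and 21.4 and 32.9 in the fresh pair, with Ncr1, a defining receptor, at 0.401 or less. Cd8b1 was lower (-0.55), and the 2 CD8 T cell markers summed to 8.19 and 8.90 FPKM in the naive and 5.50 and 5.69 in the fresh pair, with Cd8a at 0.177 or less. Of the 8 stress genes of sorting, 4 were higher. The part of these markers in the differences of the 10 RNAs was not tested.

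Other host genes without a protein product were also lower in fresh nTregs. The list is of snoRNA hosts, except that Mir17hg and Dleu2 are hosts of microRNAs, and both were among those called lower. Of 13 tested, 10 were called lower and 0 higher, with a median of -0.66, beside 14.8% of all genes lower. Snhg3 fell by 0.93, from 40.2 and 37.0 FPKM to 20.1 and 19.5, and Mir17hg, the host of a microRNA cluster, by 0.77. Snhg12 fell by 0.67, from 168 and 157 to 118 and 88.0. With stimulation the list split: 4 of the 13 rose, among them Snhg3 (0.97), Snhg4 (0.75) and Mir17hg (0.96), and 4 fell, among them Snhg12 (-1.01) and Snhg16 (-0.72). At an equal FPKM sum 7 rose and 1 fell. The 77 cytosolic ribosomal protein genes had 46 lower and 0 higher in fresh nTregs than in naive cells, with a median of -0.47. At an equal FPKM sum 7 of the 13 hosts and 24 of the 77 ribosomal protein genes were still called lower, with medians of -0.47 and -0.26, and none higher (0), beside 5.86% of all genes lower and 24.4% higher. Of the 17 snoRNP proteins, 5 were lower and 2 higher, with a median of -0.19 that was 0.00166 at an equal sum.

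**Figure D4:**
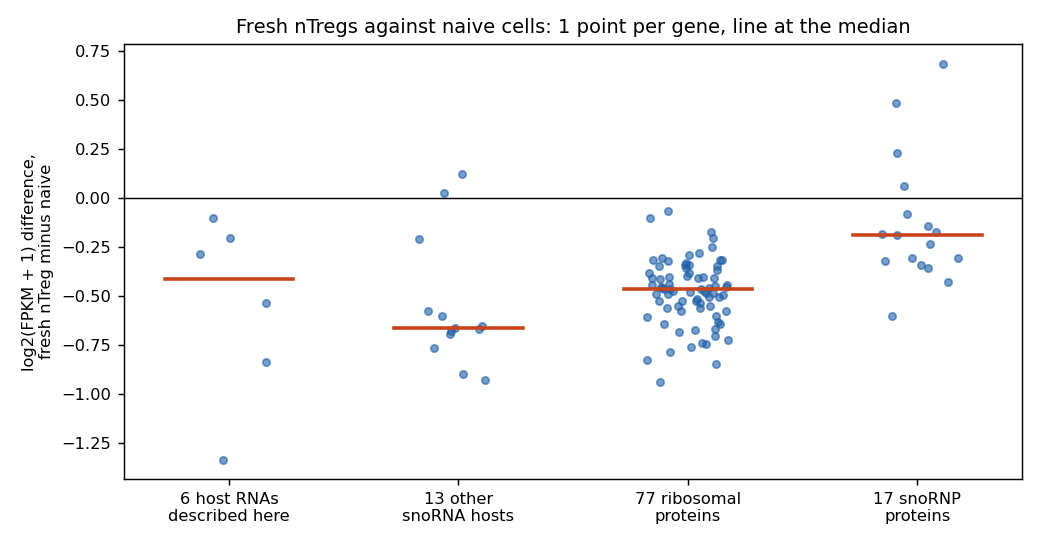
Difference of log2(FPKM + 1) between fresh nTregs and naive cells (vertical axis) for the 6 snoRNA hosts described here, 13 other hosts, 77 ribosomal protein genes and 17 snoRNP proteins, 1 point per gene and a line at the median. The 13 other hosts include the microRNA hosts Mir17hg and Dleu2. The medians are -0.41, -0.66, -0.47 and -0.19, and all 77 ribosomal protein genes lie below 0.

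The genotypes were compared over the 3 populations in the same model, which asks whether the loss of YAP goes with a change in these RNAs. None passed: 0 of the 9 were called by limma, beside 0.375% of all genes (0.259% higher and 0.116% lower in cKO), and 1 of the 9, Snhg9, had an unadjusted p under 0.05 (limma adjusted p = 0.401, difference -1.08, SE 0.43). That difference rests on the fresh pair: without its WT or its cKO library it was -0.39, and without either stimulated library -1.62. Malat1 was lower in cKO in 3 of 3 populations, with log2 differences of -0.11, -0.13 and -0.35 from naive to fresh to stimulated, and a fitted difference of -0.20 (SE 0.11, limma adjusted p = 0.518). Snhg1 was also lower in 3 of 3, by -0.01, -0.04 and -0.12 (limma adjusted p = 0.743), and 16.7% of all genes were lower in all 3. Fitted differences were -0.08 for Neat1, -0.17 for Kcnq1ot1, 0.01 for Gas5, 0.03 for Snhg5, 0.14 for Snhg6 and -0.01 for Snhg8, none of them called. Those of Gas5 and Snhg5 turned negative, at -0.05 and -0.02, with an equal FPKM sum.

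Within a population each genotype had 1 library, so the ratios below have no replicate check and their intervals (95%, exact) cover counting error only. Malat1 in cKO was 0.924 times WT among naive cells (0.919 to 0.930), 0.915 times for fresh nTregs (0.910 to 0.920) and 0.785 times after stimulation (0.777 to 0.792). Neat1 was at 1.02 (0.953 to 1.10), 0.971 (0.911 to 1.03) and 0.856 (0.785 to 0.934) in the same order. Snhg6 in stimulated nTregs was 1.46 times WT (1.17 to 1.83), while its ratios in naive cells (0.929) and fresh nTregs (0.984) had intervals that included 1. The intervals of Snhg1, Snhg5 and Snhg8 included 1 in every population.

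A difference of at least 2-fold in FPKM + 1 was seen for Snhg9 in fresh nTregs alone, at -2.47 in log2, where 1.03% of all genes passed that size (0.395% lower in cKO). In naive cells 1.19% (0.527% lower) and in stimulated nTregs 1.88% (0.685% lower) passed it. It was 25.8 FPKM in WT and 3.83 in cKO, on at most 46 and 6 fragments. Snora78, inside Snhg9, did not show that difference, at 1832 and 2180 FPKM. The difference between genotypes in the response to stimulation, cKO minus WT, was 0.56 in log2 for Snhg6, -0.22 for Malat1, -0.19 for Gas5 and -0.18 for Neat1, with no test. Snhg9 reached 2.47, since its cKO value was already low before stimulation, and 1.81% of all genes passed 2-fold. Of the 13 other long noncoding RNAs tested, 2 were lower in cKO across populations: Gt(ROSA)26Sor by 0.87 (limma adjusted p = 0.015) and Oip5os1 by 0.49 (limma adjusted p = 0.048).

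**Figure D5:**
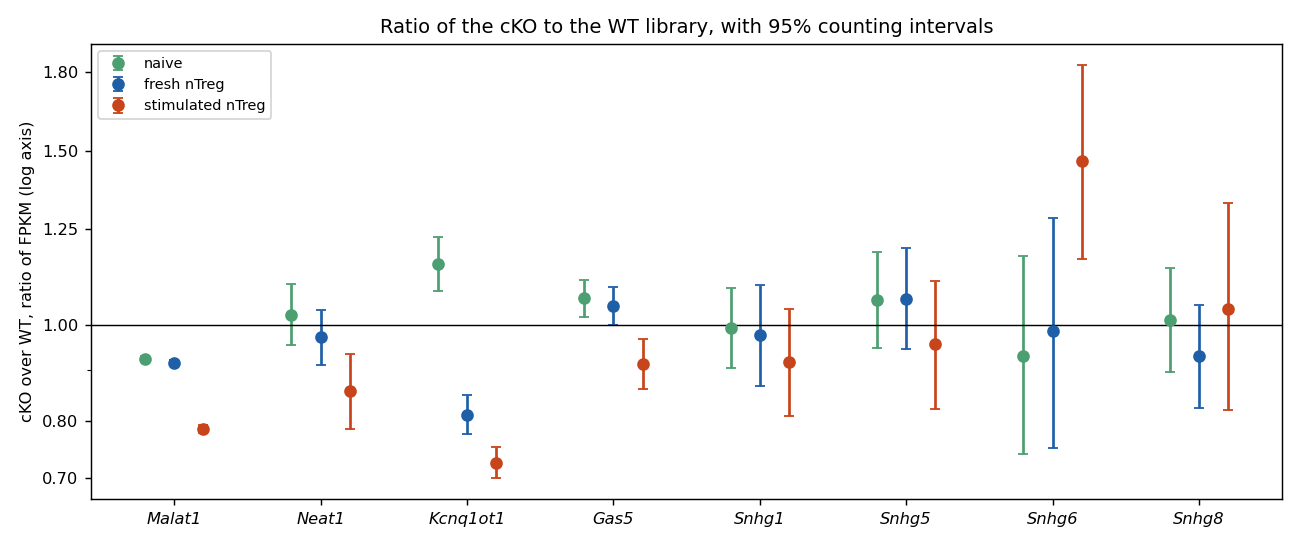
Ratio of FPKM in the cKO library to the WT library (vertical log axis) for 8 RNAs in naive cells, fresh nTregs and stimulated nTregs, with 95% counting intervals. Malat1 lies under 1 in all 3 populations, Kcnq1ot1 lies on both sides of 1, and Snhg6 in stimulated nTregs lies above 1 at 1.46.

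The genes with the course most like each RNA were found by the root mean square difference of log2(FPKM + 1), centred over the 6 libraries. Gas5 was nearest to Usp25 (0.0147 in log2), a deubiquitinase, Elf1 (0.0184), an ETS transcription factor, and Ambra1 (0.0377), an autophagy regulator. Malat1 was nearest to Utrn (0.0391), Bcl2l11 (0.0614), which encodes the pro-apoptotic protein Bim, and Pan2 (0.0686), a deadenylase subunit. Neat1 was nearest to Nfatc3 (0.0431), a calcium-regulated transcription factor of T cells, Foxj2 (0.0441) and Pp2d1 (0.0525). Snhg5 was nearest to Morc3 (0.0333), Retreg3 (0.0335) and Elf2 (0.0399), and Snhg8 to Zbtb7b (0.0632), the ThPOK factor of the CD4 lineage, Pglyrp2 (0.0903) and Adgre5 (0.0974).

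Snhg1 was nearest to Irgc1 (0.0552), Srpk1 (0.0624), a kinase of SR splicing factors, and Cox10 (0.0719). Snhg6 was nearest to Med22 (0.0703), Mrpl21 (0.0708) and Fasn (0.0908), the fatty acid synthase, and Kcnq1ot1 to Zfp708 (0.0723), Ankrd12 (0.0873) and Gm14139 (0.0879). Irgc1 and Gm14139 were low, at 0.188 and 0.936 FPKM in WT fresh nTregs, so their matches rest in part on values near the floor. Snhg9 had no close match: its nearest, Dusp10, stood at 0.752. Among the 10 themselves, Gas5 and Snhg5 were the closest pair, at 0.0627, followed by Neat1 and Gas5 at 0.161. These are descriptions over 6 libraries that share 3 populations.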

How the data were processed

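Total RNA of 6 sorted or stimulated CD4 T cell samples was sequenced as stranded libraries after removal of ribosomal RNA, from 322 ng of RNA with 12 PCR cycles, per the labels' protocols. FPKM per transcript were deposited by the authors. FastQC, TopHat, Cuffdiff and Cuffnorm, with the mm10 build, are named in the submitters' processing notes, and their versions and counting by strand are not given in the sources used here. Of 32860 rows, repeats of 165 transcripts, all with identical values, were dropped, and 32285 of 32547 transcripts were named by accession, 226 by symbol and 36 not at all. FPKM were summed per gene. All 6 value columns were matched to a group, 1 library each, and 0 were left over.

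limma 3.58.1 (R 4.3.3) was fitted with an intensity trend to log2(FPKM + 1), which understates changes of low genes, for 11213 genes at 1 FPKM or more in at least 2 libraries. The model had population and genotype terms and 2 residual degrees of freedom. Benjamini-Hochberg adjusted p under 0.05 was called. It was tested on simulated data. Alternatives changed the pseudocount, filter, scaling, trend, genotype term, transcript choice and libraries. The depth of a library is not given, and the worth of a fragment was read from low values. All 10 RNAs are named, and of each list those that passed or the largest changes, except a gene not reported here. The 10 RNAs and the lists were chosen with earlier results of these data known.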

Additional observations from a re-analysis of the deposited data

Results flagged for a closer look

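Kcnq1ot1 was on opposite sides of 1 between populations: the cKO library was 1.15 times WT in naive cells (counting interval 1.08 to 1.23), 0.811 times in fresh nTregs (0.775 to 0.849) and 0.725 times in stimulated nTregs (0.699 to 0.752). Gas5 was 1.06 times WT in naive cells (1.02 to 1.11) and 0.913 times in stimulated nTregs (0.861 to 0.968), and its ratio in fresh nTregs was 1.04. They stand out because the direction between genotypes turned beyond counting error. Each ratio compares 1 library with 1 library, so the difference between populations was not tested.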

How the results depend on the processing

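No paired analysis was possible because each group holds 1 library, so no replicate numbers are shared. The genotype term already sets populations side by side within a genotype, and the fit without it is among the alternatives. Of the counts and tests across genes, the calls between genotypes stayed at 0 under every alternative tried. Among stimulated nTregs, 6 RNAs were called lower, 3 with an equal FPKM sum, and 2 higher, 0 with no FPKM filter and between 0 and 2 when 1 library was left out. Between fresh nTregs and naive cells 1 RNA was called higher, and 0 were with a pseudocount of 5, no FPKM filter, an FPKM minimum of 5, no genotype term or the top transcript, and 0 to 1 without 1 library. Of 3 called lower, 1 was left with no filter, either equal sum, median ratio scaling, no intensity trend or the top transcript, and 1 to 5 without 1 library. The cause of these losses was not tested.

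Directions turned as follows, in log2. After stimulation Snhg1 was at 0.55 with an equal sum, 0.27 with an equal sum of features of 300 nt or more, 0.045 with median ratios and -0.074 to 0.027 without 1 library, and Snhg5 at 0.056 with an equal sum. Between fresh and naive cells Malat1 was at 0.16, 0.14 and 0.014 in the same 3 scalings and -0.10 to 0.021 without 1 library, and Snhg8 at 0.099 and 0.081 with the equal sums. Between genotypes Gas5 was at -0.046, -0.057 and -0.0085 in the 3 scalings and -0.034 to 0.075 without 1 library, and Snhg5 at -0.018 and -0.028 with the equal sums. Without 1 library Snhg8 ranged from -0.045 to 0.034 and Snhg6 from -0.064 to 0.26.

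Within populations, equal sums moved the cKO minus WT difference in stimulated nTregs to -0.51 and -0.50 for Malat1, -0.37 and -0.36 for Neat1, -0.29 and -0.28 for Gas5, -0.28 and -0.27 for Snhg1, -0.22 and -0.21 for Snhg5 and -0.10 and -0.09 for Snhg8. Meg3 was at -0.34 (equal sum), -0.63 and -0.06 (pseudocounts of 0.1 and 5) and -0.34 (top transcript), and -0.50 in fresh nTregs (pseudocount of 0.1), where Snhg1 was at -0.08 (equal sum of long features). The response difference became -0.37 and -0.32 for Malat1, -0.32 and -0.27 for Neat1, -0.34 and -0.29 for Gas5, -0.23 and -0.19 for Snhg1, -0.29 and -0.25 for Snhg5 and 0.02 and 0.06 for Snhg8, and for Meg3 -0.28 (equal sum), -0.05 (pseudocount of 5) and -0.35 (top transcript). Few fragments limit Snhg9, Meg3 and Snhg6.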

Other observations

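Xist, the RNA that coats the inactive X chromosome, had a larger fitted difference between genotypes than any of the 9 RNAs tested. The naive pair read 12.5 (WT) and 8.76 (cKO) FPKM, the fresh nTreg pair 29.98 and 3.21 and the stimulated pair 21.1 and 3.43. It was lower in cKO in 3 of 3 populations, and it was not called (-1.89 in log2, limma adjusted p = 0.197). The sex of the mice is not given in the sources used here. Airn, an imprinted antisense RNA like Kcnq1ot1, was at 6.59, 4.64, 12.4, 5.65, 16.7 and 7.14 FPKM in the same order (-0.85, limma adjusted p = 0.122).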
